A study of Mus musculus with 18 samples.

Results

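The 10 genes described here carry iron into cells, move it within them, store it, export it or sense it. They were chosen by name, not by a rule on their values, but with earlier results of these data known. They are Tfrc, Tfr2, Steap3, Slc11a2, Slc25a37, Fth1, Ftl1, Slc40a1, Hmox1 and Ireb2, which are 10 of the 20321 rows of the deposited gene table. All 10 were among the 13826 genes that passed the filter on low counts. Their messenger RNA was read in 18 RNA-seq libraries of mouse embryonic stem (ES) cells that had been differentiated as embryoid bodies, which are aggregates of ES cells that form early germ layers in culture.

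The ES line carried a green fluorescent reporter in the Brachyury (Bry) gene, which marks newly formed mesoderm. On day 3, Bry+ cells were sorted by the surface receptors endoglin (Eng, or E) and Flk-1 (the product of Kdr, or F). The E+F+ and the E+F- fractions, and cells that were not separated by these receptors (unsorted), were each reaggregated for 24 h. During this time they received IWR-1 at 10 µM, a compound that stabilises Axin and so lowers canonical Wnt signalling, or its solvent DMSO at an IWR-1 dose of 0 µM. This gave 6 groups of 3 libraries, numbered Set 1 to Set 3. All groups came from the same reporter line and the same medium, which by the study's methods held iron-saturated transferrin. The fraction names describe surface protein at the time of the sort: 24 h later, and under DMSO, the level of Kdr in TPM (transcripts in 1000000, scaled for transcript length) was 7.69 to 13.4 in E+F+ cells and 25.2 to 75.3 in E+F- cells.

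Most cells take up iron bound to transferrin. The transferrin receptor carries it into endosomes, where a ferrireductase of the Steap family reduces it and the transporter encoded by Slc11a2 (DMT1) releases it into the cytosol. From there iron goes to mitochondria, where haem and iron-sulphur clusters are made, is enclosed in ferritin, a shell of heavy and light chains, or leaves the cell through ferroportin. Developing red cells take up iron mainly for haem. The amounts of these proteins are set in part after transcription: when iron is scarce, iron regulatory proteins bind a hairpin called the iron-responsive element (IRE). In a 5′ untranslated region the bound hairpin blocks translation, and in the 3′ untranslated region of Tfrc the bound hairpins protect the messenger RNA from decay. A count of messenger RNA therefore does not report the amount of ferritin or ferroportin protein.

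Such hairpins were searched for in the reference transcripts of the 10 genes, because they are a route by which iron acts on RNA. The transcripts were those of GENCODE M21 (build GRCm38, the same assembly as the mm10 transcripts used by the authors). The pattern was a bulged C, 5 bases of any kind, CAGTG, then A, C or T, and 5 bases that pair with the 5 before the loop, G-U pairs allowed, on the transcript strand only. There were 7 matches in 4 of the 10 genes. They are printed 5′ to 3′ with the 6-base loop in capitals. The 4 in Tfrc lie in the 3′ untranslated region, on the plus strand, at chr16:32631220-32631246, chr16:32631599-32631625, chr16:32631664-32631690 and chr16:32631711-32631737.
Tfrc hairpin 1: auuaucggaagCAGUGCcuuccauaau
Tfrc hairpin 2: auuaucgggagCAGUGUcuuccauaau
Tfrc hairpin 3: uauaucggagaCAGUGAucuccauaug
Tfrc hairpin 4: auuaucgggaaCAGUGUuucccauaau
The other 3 lie in 5′ untranslated regions, at chr19:9982733-9982759 (plus strand) for Fth1, chr7:45459780-45459806 (minus strand) for Ftl1 and chr1:45925466-45925492 (minus strand) for Slc40a1.
Fth1 hairpin: uccugcuucaaCAGUGCuugaacggaa
Ftl1 hairpin: ucuugcuucaaCAGUGUuugaacggaa
Slc40a1 hairpin: aacuucagcuaCAGUGUuagcuaaguu
A match was present in the 5′ untranslated region of 0.105% of 21901 protein-coding genes and in the 3′ untranslated region of 0.457%. No match was found in the other 6 genes, which says only that these letters are not in their annotated untranslated regions. A hairpin with another loop or an imperfect stem would be missed, so these 6 genes may still hold an IRE.

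Summed expected counts ranged from 19725500 to 26649631 per library. Libraries of Set 3 held more erythroid transcript than the others in every group: the summed TPM of 13 erythroid markers (of 14 listed) was 4534 in the E+F+ DMSO library of Set 3 against 1641 and 785 in Sets 1 and 2, and 9532 against 1476 and 1396 in the corresponding IWR-1 libraries. In the E+F- libraries this sum was 11.3 to 172.9 under DMSO and 17.4 to 589.7 under IWR-1. In bulk libraries such as these, fewer cells of a type and less RNA per cell cannot be told apart. Of 9 measured macrophage markers, 6 stayed under 1 TPM in all 18 libraries, Ptprc and Csf1r among them.

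The 10 genes covered a wide range of levels, which can be compared between genes because TPM is scaled by transcript length. Ftl1, the ferritin light chain, had the highest level, with a median of 7491 TPM over the 18 libraries, followed by Fth1, the heavy chain, with 1892 TPM. Together the 2 ferritin chains made up 0.55% to 1.39% of all transcripts. Hmox1 and Tfrc came next, with medians of 105 and 67.5 TPM, and then Ireb2, Slc11a2 and Slc25a37 at 33.3, 21.7 and 16.3 TPM. Slc40a1, Steap3 and Tfr2 were near the lower end of what could be measured, with medians of 2.83, 0.80 and 0.22 TPM. The most variable of the better-measured genes were Slc25a37, whose highest library held 8.07 times the level of its lowest, and Fth1, at 5.51 times. Ireb2 varied least, at 1.40 times.

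**Figure D1:**
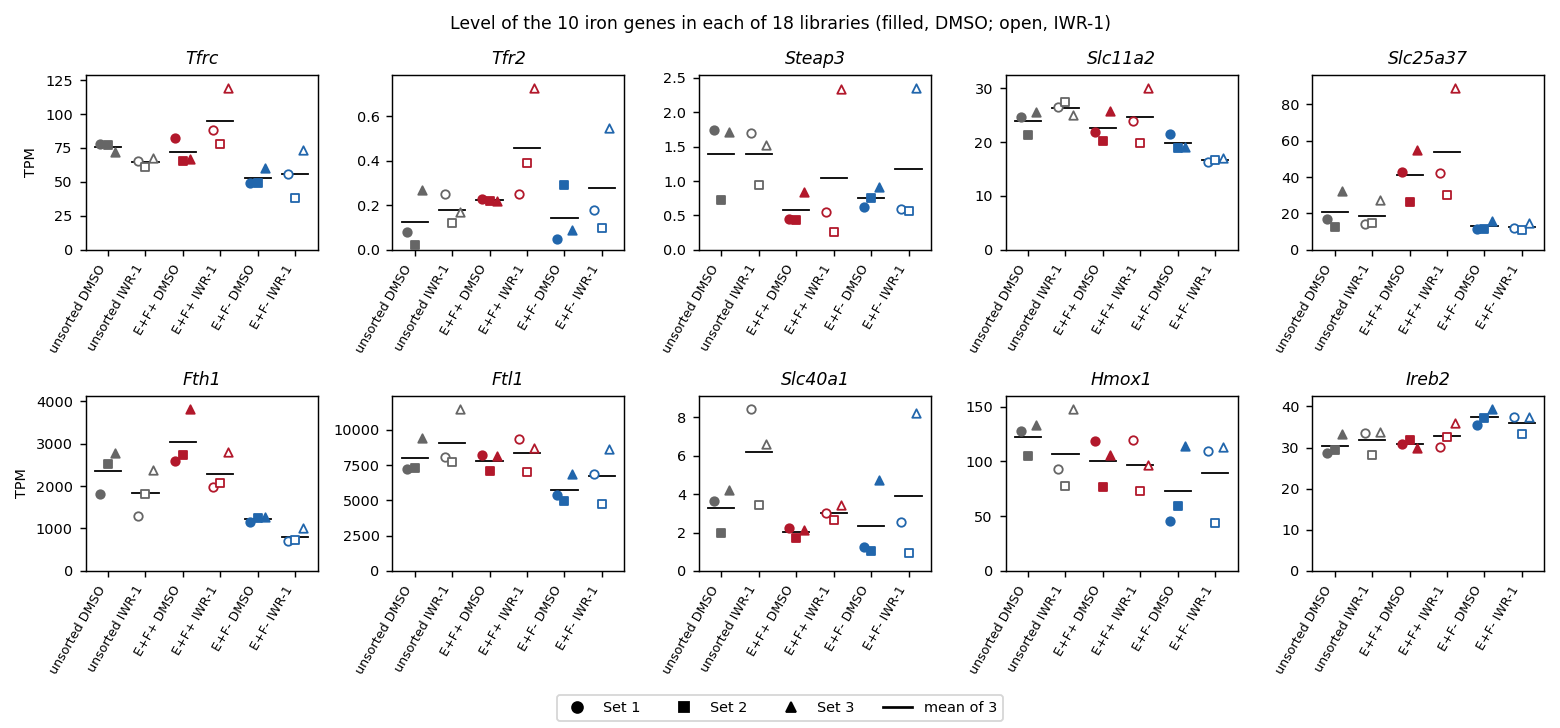
Level of each of the 10 iron genes in TPM (vertical axis, starting at 0 and scaled for each gene) in the 6 groups, with 1 point per library and a bar at the mean of 3. Filled points are DMSO, open points IWR-1, and the shape gives the Set; within each treatment the means of Fth1 and Slc25a37 were highest in E+F+ and lowest in E+F- cells.

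The comparison of E+F+ with E+F- cells asks how the endoglin-positive progenitors with and without Flk-1 differ. Under DMSO, Fth1, Slc25a37, Tfrc and Ftl1 were higher in E+F+ cells, and none of the 10 genes was lower. These 4 of 10 compare with 12.8% of the 13826 genes tested that were higher and 26.6% that passed the test in either direction. Of all calls 48.1% were higher in E+F+ cells, and 32.3% to 34.1% with limma on TPM. The median log2 fold change of the 10 genes was 0.57, against -0.01 for all genes tested. Under IWR-1, in separate libraries of the same Sets, Fth1, Slc25a37, Tfrc and Slc11a2 were higher, again 4 of 10, where 10.4% of all genes were higher and 22.5% passed in either direction. All calls rest on edgeR's quasi-likelihood test with a Benjamini-Hochberg adjusted p under 0.05 across all genes tested, with 3 libraries per group.

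**Figure D2:**
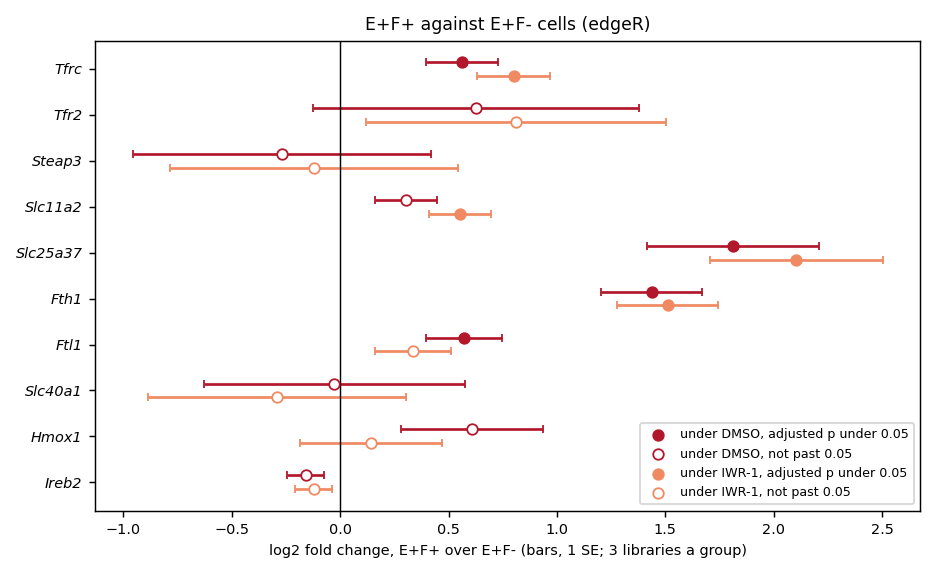
Log2 fold change of E+F+ over E+F- cells for the 10 genes (horizontal axis) with bars of 1 standard error, under DMSO (dark) and IWR-1 (light). Filled points passed an adjusted p of 0.05: Fth1, Slc25a37, Tfrc and Ftl1 under DMSO, and Fth1, Slc25a37, Tfrc and Slc11a2 under IWR-1.

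Iron uptake was represented by Tfrc, the transferrin receptor of most cells. Under DMSO, Tfrc levels in Sets 1, 2 and 3 (the order kept below) were 82.6, 65.3 and 67.2 TPM for E+F+ cells, against 49.2, 49.2 and 59.9 TPM for E+F- cells. The groups did not overlap, as was true in this direction of 13.3% of all genes tested. The log2 fold change was 0.56 ± 0.17 (SE, n = 3 per group, edgeR adjusted p = 0.0208). This call was lost without the E+F+ DMSO library of Set 1 (adjusted p = 0.0809), without the E+F- DMSO library of Set 1 (0.0593) or Set 2 (0.0614), and without Set 1 in all groups (0.273), and also with each limma fit on TPM (0.109 to 0.144). Under IWR-1 the difference was 0.80 ± 0.17 (adjusted p = 0.00332), with 88.3, 77.7 and 119.5 TPM in E+F+ cells against 55.7, 37.9 and 73.5 TPM in E+F- cells, and it was lost only without Set 1 in all groups (0.0592). The highest level of Tfrc was thus in the E+F+ IWR-1 library of Set 3, which also had the largest erythroid marker sum. The part of the erythroid sum in the result was not tested. Without Set 3 in all groups the differences were 0.64 (adjusted p = 0.0163) under DMSO and 0.80 (0.00626) under IWR-1. This fit does not bear on that part, because the erythroid contrast remains in Sets 1 and 2. Under DMSO the sum there was 1641 and 785 TPM in E+F+ against 11.3 and 17.6 TPM in E+F- libraries.

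Tfr2, a second transferrin receptor known from liver and erythroid cells, was scarcely expressed, with 1 to 26 counts per library and 0.02 to 0.73 TPM. Steap3, the endosomal ferrireductase of erythroid cells, had 10 to 81 counts and 0.26 to 2.36 TPM. Neither gene passed the test in any comparison, and at this depth only large differences could have been seen in them. The highest values of both genes in sorted cells were in Set 3 under IWR-1: Steap3 stood at 2.34 TPM in the E+F+ library and 2.36 TPM in the E+F- library of that Set, against 0.26 to 0.59 TPM in the other 4 sorted IWR-1 libraries.

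Slc11a2, which encodes the endosomal iron transporter DMT1, differed little between groups. It stood at 21.9, 20.1 and 25.8 TPM in E+F+ and 21.6, 19.0 and 19.1 TPM in E+F- cells under DMSO, groups that overlapped (log2 fold change 0.30 ± 0.14, adjusted p = 0.125). Under IWR-1 the values were 23.9, 19.8 and 30.1 TPM against 16.3, 16.8 and 17.1 TPM, which did not overlap, as in 16% of all genes (0.55 ± 0.14, adjusted p = 0.0115). That call was lost without the E+F+ IWR-1 library of Set 3 (adjusted p = 0.0851) and without Set 1 or Set 3 in all groups (0.115 and 0.103), and when these 2 groups were fitted alone (0.0562). Part of an exon of Slc11a2 overlaps a gene on the opposite strand, and the libraries kept no strand, so reads of the overlap cannot be assigned.

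Slc25a37 encodes mitoferrin-1, the carrier that brings iron across the inner mitochondrial membrane and is most active in developing red cells. It showed the largest difference of the 10 genes between these populations. Under DMSO its level was 42.8, 26.3 and 54.8 TPM in E+F+ cells, as compared with 11.3, 11.5 and 15.7 TPM in E+F- cells. The lowest E+F+ library was therefore above the highest E+F- library, and the log2 fold change was 1.81 ± 0.40 (edgeR adjusted p = 0.00376). Under IWR-1 it stood at 42.1, 29.9 and 89.2 TPM against 11.9, 11.1 and 14.8 TPM, a difference of 2.10 ± 0.40 (adjusted p = 0.00187).

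Within E+F+ cells, Slc25a37 was highest in Set 3 and lowest in Set 2 under both treatments. This order also held for the erythroid marker sum in E+F+ cells, and the part of that sum in the result was not tested. Without Set 3 in all groups the differences were 1.65 (adjusted p = 0.000589) under DMSO and 1.61 (0.000753) under IWR-1. This fit does not bear on that part either, because the erythroid contrast between the populations remains in the other Sets. Without Set 1 in all groups the DMSO call was lost (1.74, adjusted p = 0.0818), whereas the IWR-1 call was not. The genes whose pattern over the 18 libraries came nearest to that of Slc25a37, by root mean square difference of centred log2 CPM (counts scaled by library size), were Prkca (0.28), Fech (0.28), which encodes the enzyme that inserts iron into haem, and Ssx2ip (0.29). Exons of Slc25a37 overlap antisense transcripts in the annotation, and without strand these reads cannot be told apart.

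Iron storage changed most in its heavy chain. Fth1 encodes the ferritin subunit with ferroxidase activity, which oxidises iron so that it can be laid down in the shell. Under DMSO, E+F+ cells held 2586, 2732 and 3826 TPM of Fth1, whereas E+F- cells held 1155, 1246 and 1266 TPM. The E+F+ values were all above the E+F- values, and the log2 fold change was 1.44 ± 0.23 (edgeR adjusted p = 0.000512). Under IWR-1 the levels were 1969.7, 2075 and 2793 TPM against 695, 732 and 1005 TPM (1.51 ± 0.23, adjusted p = 0.000522). Fth1 passed the test in all 17 alternatives tried for each treatment, with adjusted p from 3.64e-08 to 0.0263 under DMSO and from 1.01e-08 to 0.0332 under IWR-1. The genes most like Fth1 in pattern were Parva (root mean square difference 0.27), 8430427H17Rik (0.27) and Ehd2 (0.28).

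Ftl1 encodes the light chain, which favours formation of the iron core. It stood at 8231, 7091 and 8138 TPM in E+F+ DMSO libraries against 5401, 4948 and 6871 TPM in E+F- DMSO libraries, without overlap. The log2 fold change of 0.57 ± 0.17 (adjusted p = 0.0249) was smaller than that of Fth1 and less stable. The call was lost without the E+F+ DMSO library of Set 1 (adjusted p = 0.0651) or Set 3 (0.0766), without the E+F- DMSO library of Set 1 (0.0644) or Set 2 (0.0899), and without Set 1 or Set 2 in all groups (0.190 and 0.0978). It was also lost with each limma fit on TPM (0.114 to 0.184). Under IWR-1 the groups overlapped, at 9364, 7003 and 8706 TPM against 6829, 4769 and 8616 TPM, and the difference of 0.33 ± 0.17 did not pass (adjusted p = 0.188), but it did with Set as a block (0.35, adjusted p = 0.0437). Both ferritin chains have many processed pseudogenes in the mouse genome, and reads were aligned to curated transcripts only, so that reads from expressed pseudogenes, if any, were counted in Fth1 and Ftl1. Exons of Ftl1 also overlap other annotated transcripts.

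The ratio of Fth1 to Ftl1 TPM, a description computed after these values were seen, separated the populations. It was 0.31, 0.39 and 0.47 in the E+F+ DMSO libraries, 0.25, 0.35 and 0.29 in the unsorted DMSO libraries and 0.21, 0.25 and 0.18 in the E+F- DMSO libraries. The E+F+ ratios lay above all E+F- ratios, and the ratio in unsorted cells overlapped with the ratio in E+F+ cells. Under IWR-1 the ratio was lower in each of the 9 pairs of libraries that shared a population and a Set: 0.21, 0.30 and 0.32 in E+F+, 0.16, 0.24 and 0.21 in unsorted, and 0.10, 0.15 and 0.12 in E+F- cells.

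**Figure D3:**
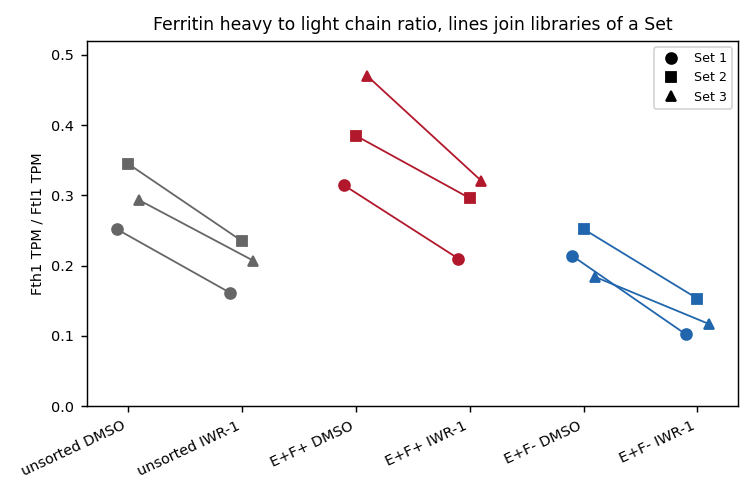
Ratio of Fth1 to Ftl1 TPM (vertical axis, from 0) in each library, with lines joining the DMSO and IWR-1 libraries of 1 Set and population. The ratio ran from 0.10 to 0.47 and was lower under IWR-1 in 9 of 9 pairs.

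Slc40a1 encodes ferroportin, the exporter of iron. Its level was low, at 2.23, 1.73 and 2.15 TPM in E+F+ and 1.22, 1.05 and 4.76 TPM in E+F- cells under DMSO, so the E+F- libraries spanned the E+F+ libraries. The same held under IWR-1, with 3.01, 2.64 and 3.44 TPM against 2.53, 0.93 and 8.25 TPM. In both treatments the highest E+F- library was that of Set 3. The highest levels of Slc40a1 by group mean were in unsorted IWR-1 cells, at 6.17 ± 2.53 TPM (SD, n = 3). The genes most like Slc40a1 over the libraries were Plekha7, Parp4 and Kat2b, with root mean square differences of 0.32, 0.34 and 0.38. Of the other low genes, Tfr2 was most like Ankrd6 (0.52), Svil (0.53) and Eng (0.53), and Steap3 was most like Arhgap30 (0.48), Plcg2 (0.49) and Rnf125 (0.50).

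Hmox1 encodes haem oxygenase 1, which opens the haem ring and frees its iron. It stood at 118.6, 76.8 and 106.1 TPM in E+F+ DMSO and 45.7, 59.2 and 113.9 TPM in E+F- DMSO libraries. The E+F- library of Set 3 lay among the E+F+ values, the others below them (log2 fold change 0.61 ± 0.33, adjusted p = 0.187). That difference rested on single libraries: it was 1.00 (adjusted p = 0.0441) without the E+F- library of Set 3, 0.39 (0.465) without that of Set 1, 0.26 (0.728) without Set 1 in all groups and 0.95 (0.0854) without Set 3 in all groups. Under IWR-1 the values were 119.7, 72.7 and 96.7 TPM against 109.6, 43.9 and 113.7 TPM (0.14 ± 0.33, adjusted p = 0.804). Ireb2 encodes iron regulatory protein 2, one of the proteins that bind the hairpins shown above. Ireb2 was the only one of the 10 genes whose E+F- DMSO libraries, at 35.5, 37.1 and 39.5 TPM, all lay above its E+F+ DMSO libraries, at 31.0, 31.8 and 29.8 TPM. Groups apart in that direction were found in 29.6% of all genes, and the log2 fold change of -0.16 ± 0.08 did not pass the test (adjusted p = 0.177).

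The unsorted cells place these differences. In the order of the 6 group means, Slc25a37 fell from the E+F+ groups (53.7 and 41.3 TPM with IWR-1 and DMSO) through the unsorted (20.6 with DMSO and 18.6 with IWR-1) to the E+F- groups (12.8 and 12.6). No neighbouring groups in that order were apart in all 3 libraries. For Fth1 the order was E+F+ DMSO (3048 TPM), unsorted DMSO (2364), E+F+ IWR-1 (2279), unsorted IWR-1 (1830.2), E+F- DMSO (1223) and E+F- IWR-1 (811). Neighbours among the first 4 of these overlapped. E+F- DMSO lay below unsorted IWR-1 in all 3 libraries, and E+F- IWR-1 likewise below E+F- DMSO. The order of the Tfrc means ran from E+F+ IWR-1 (95.2 TPM) to E+F- DMSO (52.8), with every neighbour overlapping. For Slc11a2 only the lowest group, E+F- IWR-1, lay apart from the next. In the other 6 genes all neighbours overlapped.

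Against unsorted cells, E+F+ cells under DMSO showed no call among the 10 genes in edgeR, where 10.6% of all genes were called. The nearest was Slc25a37, the single gene of the 10 with an unadjusted p under 0.05 (log2 fold change 1.12 ± 0.39, adjusted p = 0.0759), and the single one called by DESeq2 (adjusted p = 0.024). With Set as a block Slc25a37 passed (1.16, adjusted p = 0.00303), as did Fth1 (0.46, adjusted p = 0.0374). The pairing by Set was weak in Set 1, whose unsorted and E+F+ libraries deviated from their group means with a correlation of 0.10. That unsorted library reached 0.13 with the E+F+ library of Set 2. Without the unsorted DMSO library of Set 3, whose Slc25a37 level of 32.1 TPM and erythroid marker sum of 2352 TPM were far above the 16.9 and 12.7 TPM and the sums of 75.2 and 108.0 TPM of the other unsorted DMSO libraries, the difference in Slc25a37 was 1.56 (adjusted p = 0.0318). The other 8 genes ranged from -1.15 (Steap3) to 0.95 (Tfr2).

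Under IWR-1, Slc25a37 and Tfrc were higher in E+F+ than in unsorted cells, 2 of 10, where 10% of all genes were called and 3.64% were higher. Slc25a37 differed by 1.61 ± 0.39 (adjusted p = 0.0187) and Tfrc by 0.64 ± 0.17 (adjusted p = 0.0254). Both calls were lost without the E+F+ IWR-1 library of Set 3 (adjusted p = 0.105 and 0.122), without the unsorted IWR-1 library of Set 1 (0.0790 and 0.0827) or Set 2 (0.0598 and 0.0550), and without Set 1 (0.208 and 0.220) or Set 2 (0.0893 and 0.0724) in all groups. That of Tfrc was also lost without Set 3 in all groups (0.0787). When the 2 groups were fitted alone, neither gene passed (0.0644 and 0.0580). With limma on TPM, Tfrc did not pass in any of the 3 fits (0.103 to 0.134), nor did Slc25a37 in the unfiltered one (0.0606). The other 8 genes ranged from -0.92 (Slc40a1) to 1.45 (Tfr2).

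Fth1 alone of the 10 genes passed the edgeR test between E+F- and unsorted cells, being lower in E+F- cells by 0.98 on the log2 scale under DMSO (-0.98 ± 0.23, adjusted p = 0.0171) and by 1.11 under IWR-1 (-1.11 ± 0.23, adjusted p = 0.0255). Of all genes, 9.48% were called under DMSO (4.92% lower) and 2.66% under IWR-1 (1.48% lower). Unsorted libraries held 1813, 2509 and 2770.0 TPM of Fth1 under DMSO and 1300.2, 1815 and 2376 TPM under IWR-1, all above the E+F- libraries of the same treatment. The share of all genes apart in this way was not counted for these groups. The DMSO call was lost without the unsorted library of Set 2 (adjusted p = 0.0800) or Set 3 (0.0585), the E+F- library of Set 1 (0.0632) or Set 2 (0.0520), and without Set 2 in all groups (0.365). The IWR-1 call was lost without the unsorted library of Set 2 (0.112) or Set 3 (0.0959), the E+F- library of Set 1 (0.139) or Set 2 (0.0926), without Set 2 in all groups (0.591), and with the 2 groups fitted alone (0.248). DESeq2 called 4 of the 10 under DMSO, Fth1, Tfrc (adjusted p = 0.0182), Ftl1 (0.0401) and Ireb2 (0.0250). Under IWR-1 it called 3, Fth1, Slc11a2 (0.0152) and Ireb2 (0.0481). DESeq2 also called more of all genes, 1958 under DMSO and 1032 under IWR-1, against 1311 and 368 with edgeR.

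In edgeR, under DMSO, Tfrc (-0.54 ± 0.17, adjusted p = 0.0510) and, in the opposite direction, Ireb2 (0.27 ± 0.08, adjusted p = 0.0518) were just short of the threshold. Tfrc also passed with RLE scaling (adjusted p = 0.0499) and with the 2 groups fitted alone (0.0332). Under IWR-1 the differences were -0.16 ± 0.17 for Tfrc (adjusted p = 0.618) and 0.26 ± 0.08 for Ireb2 (0.0966). Ftl1 (-0.50 ± 0.17, adjusted p = 0.0832) and Hmox1 (-0.79 ± 0.33, adjusted p = 0.139) did not pass under DMSO. Slc11a2 was just short of the threshold under IWR-1 (-0.54 ± 0.14, adjusted p = 0.0522), and passed with Set as a block (-0.54, adjusted p = 0.0291) and with the limma fits on TPM (0.0237 to 0.0274). The remaining genes ranged from -0.88 to 0.32 on the log2 scale under DMSO and from -0.63 to 0.64 under IWR-1, the ends of both ranges being low genes (Steap3 or Slc40a1, and Tfr2).

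IWR-1 was compared with DMSO within each population to ask how lowering Wnt signalling during the 24 h of reaggregation bears on these genes. None of the 10 genes passed the edgeR test in E+F+, E+F- or unsorted cells, in which 0%, 0.521% and 0.094% of all genes were called. DESeq2, which called 30, 216 and 156 genes in all, called none of the 10 either. At an unadjusted p under 0.05 there was 1 of the 10 in E+F+ cells (Tfrc), 1 in E+F- cells (Fth1) and 0 in unsorted cells. The log2 differences of the 10 genes ranged from -0.44 to 1.02, from -0.51 to 0.84 and from -0.38 to 0.91. With Set as a block the test called 9, 206 and 120 genes in all but still none of these 10. That block was a Set effect shared by all 18 libraries, so it did not pair the libraries within each population.

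Fth1 was lower with IWR-1 than with DMSO in every Set of every population. Its TPM ratio, on the log2 scale, was -0.39, -0.40 and -0.45 in E+F+ cells, -0.73, -0.77 and -0.33 in E+F- cells and -0.48, -0.47 and -0.22 in unsorted cells. Of all genes with a value in every pair, 6.73% were likewise lower in 9 of 9 pairs. The fitted differences were -0.44 ± 0.23 in E+F+ (adjusted p = 0.986), -0.51 ± 0.23 in E+F- (0.590) and -0.38 ± 0.23 in unsorted cells (0.689). With a library or Set left out they ranged from -0.61 to -0.24, from -0.66 to -0.43 and from -0.59 to -0.16. The smallest values came without the DMSO library of Set 3 in E+F+ cells and without the IWR-1 library of Set 1 in unsorted cells. The E+F- group of IWR-1 libraries lay entirely below the DMSO group, while in E+F+ and unsorted cells the groups overlapped. How many of all genes had groups apart in this way was not counted. The fall in the ratio of heavy to light chain described above holds these values of Fth1 and also those of Ftl1. Ftl1 was higher with IWR-1 in 7 of 9 pairs, by no more than 0.34 on the log2 scale. In Set 3 of unsorted cells its ratio of 0.28 was larger in size than the -0.22 of Fth1.

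Slc40a1 was higher with IWR-1 in 8 of the 9 pairs, as were 9.46% of all genes in at least 8. In unsorted cells it went from 3.63, 1.96 and 4.20 TPM with DMSO to 8.46, 3.46 and 6.60 TPM with IWR-1. In E+F- cells the Set 2 pair went the other way, from 1.05 to 0.93 TPM, which are 52 and 45 counts. The fitted differences were 0.55 ± 0.60 in E+F+ (adjusted p = 0.997), 0.82 ± 0.60 in E+F- (0.830) and 0.91 ± 0.59 in unsorted cells (0.729), and none passed the test. In E+F+ cells the 3 IWR-1 libraries lay above the 3 DMSO libraries, at the 3.01, 2.64 and 3.44 TPM and the 2.23, 1.73 and 2.15 TPM given above. The share of all genes with groups apart in this way was not counted, so the separation adds nothing to the test. The E+F- value rested on 1 library: without the E+F- IWR-1 library of Set 3 it was -0.25 (adjusted p = 0.936).

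**Figure D4:**
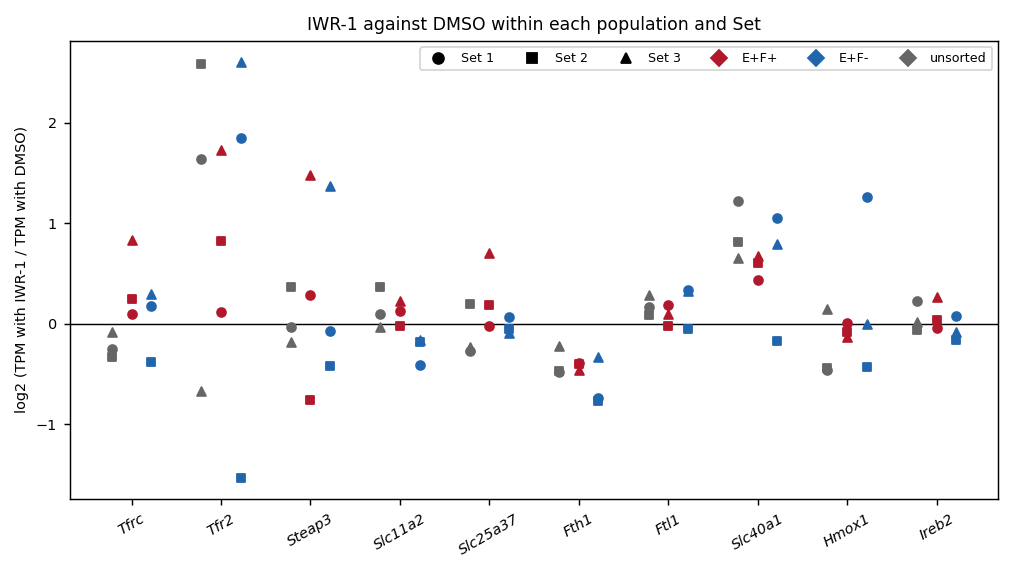
Log2 ratio of TPM with IWR-1 to TPM with DMSO (vertical axis) for each of the 10 genes, with 1 point for each population (colour) and Set (shape). All 9 points of Fth1 lie below 0 and 8 of 9 of Slc40a1 above it; the points of Tfr2 rest on 1 to 26 counts per library.

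After the pairwise values were seen, the effect of IWR-1 was also tested as an average over the 3 populations. Without a block, no change passed in Fth1 (-0.44 ± 0.13, adjusted p = 0.0942), Slc40a1 (0.76 ± 0.35, 0.270) or Ftl1 (0.19 ± 0.10, 0.354), and edgeR called 2.18% of all genes. With each of the 9 pairs of a population and Set as a block, the fit called 19.4% of all genes, 9.97% higher and 9.48% lower with IWR-1. In this paired fit Fth1, the ferritin heavy chain, fell by 0.45 on the log2 scale (-0.45 ± 0.05, adjusted p = 0.000246, lower in 9 of 9 pairs), and Slc40a1, the iron exporter, rose by 0.72 (± 0.11, adjusted p = 0.00169, higher in 8 of 9 pairs). Ftl1, the light chain, rose by 0.18 (± 0.05, adjusted p = 0.0260, higher in 7 of 9 pairs). The 9 pairs come from 3 Sets and are not 9 independent experiments, so these p-values may be too small.

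Leaving out Set 1, Set 2 or Set 3 from the paired fit gave -0.41 (adjusted p = 0.00733), -0.42 (0.0124) and -0.52 (0.000868) for Fth1, and 0.63 (0.0161), 0.82 (0.00835) and 0.70 (0.0346) for Slc40a1. The change in Ftl1 no longer passed without Set 1 (0.16, adjusted p = 0.145) or without Set 3 (0.14, 0.139), and passed without Set 2 (0.24, 0.0475). In the paired fit Fth1 moved in the opposite direction to Ftl1 and Slc40a1. Each of these messages holds a 5′ hairpin of the kind printed above, whose part in the changes was not tested. Levels of messenger RNA do not report the effect of such a hairpin on translation.

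Tfrc moved in different directions in the populations, without passing a test. It was higher with IWR-1 in all 3 Sets of E+F+ cells (0.39 ± 0.17, adjusted p = 0.986) and lower in all 3 Sets of unsorted cells (-0.23 ± 0.17, adjusted p = 0.770). The E+F+ value was 0.20 without the IWR-1 library of Set 3, 0.16 without Set 3 in all groups and 0.55 without Set 1. The difference between these effects, tested as an interaction, was 0.62 ± 0.23, with an unadjusted p of 0.0179 and an adjusted p of 1.00. It was the only one of 30 such tests, 3 for each of the 10 genes, with an unadjusted p under 0.05, and none of the 30 passed after adjustment in edgeR or DESeq2. Of all genes, 0.0289% passed for E+F+ against E+F- cells, and 0% for each of the other contrasts of effects. Between E+F+ and E+F- cells the effects on Tfrc differed by 0.24 ± 0.23 (adjusted p = 1.00). No difference in the effect of IWR-1 between populations thus passed in these tests, which did not pair the libraries within each population. A test of such differences with that pairing was not run.

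Other genes of iron and haem handling were compared in 7 wider lists, under DMSO. Their counts and medians are read against 12.8% of all genes higher in E+F+ cells, 26.6% called in either direction, and a median of -0.01, and in most lists most genes were not called. Of 15 tested genes of the transferrin cycle, importers and ferrireductases, 4 were higher and 0 lower, with a median log2 fold change of 0.31. They were led by Slc39a8, a zinc and iron importer (3.13 ± 0.36, adjusted p = 4.5e-05), followed by Steap2, a ferrireductase (1.45 ± 0.31, adjusted p = 0.00352), and Snx3, a sorting protein that recycles the transferrin receptor (0.31 ± 0.10, adjusted p = 0.0357). Slc39a8 stood at 55.6, 45.4 and 77.1 TPM in E+F+ libraries and at 6.46, 8.68 and 6.59 TPM in E+F- libraries. The Snx3 groups overlapped, at 143.02, 137.06 and 171.49 TPM against 119.88, 118.95 and 158.85 TPM. Calls in the wider lists and marker lists come from the main fit only and were not followed through the alternatives.

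Of 3 tested genes of ferritin turnover and iron chaperones, 1 was higher, Ncoa4, the receptor that delivers ferritin to lysosomes for breakdown. Ncoa4 stood at 138.1, 103.7 and 141.0 TPM in E+F+ and 59.7, 57.1 and 59.7 TPM in E+F- libraries (1.21 ± 0.18, adjusted p = 0.000341). Both tested genes in the list of export and ferroxidases were higher, namely Heph (1.68 ± 0.36, adjusted p = 0.00300), a copper ferroxidase, and App (1.45 ± 0.17, adjusted p = 5e-05), best known as the amyloid precursor. This list leaves out the exporter Slc40a1, which did not differ in edgeR (-0.03 ± 0.60, adjusted p = 0.980). Heph was low, at 4.38, 3.29 and 2.15 TPM in E+F+ and 1.37, 1.12 and 0.76 TPM in E+F- libraries. Of 9 tested genes of iron sensing and the hepcidin axis, 1 was higher, which was Tfrc itself, and the list median was -0.11.

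Haem transport and breakdown had 5 of 11 tested genes higher and 0 lower, with a median of 0.45. The lead was Abcb10, a mitochondrial transporter that in mouse erythroid cells binds mitoferrin-1 (2.78 ± 0.26, adjusted p = 1.77e-05). Abcb10 stood at 91.3, 67.0 and 104.4 TPM in E+F+ and 11.8, 14.3 and 15.6 TPM in E+F- libraries. Next came Blvrb, a biliverdin reductase (1.12 ± 0.20, adjusted p = 0.00104), and Slc48a1, a haem transporter (0.98 ± 0.25, adjusted p = 0.00978). Of 18 genes of iron-sulphur cluster assembly 4 were higher and 0 lower (median 0.17), led by Glrx5 (1.09 ± 0.25, adjusted p = 0.00482), Bola3 (0.65 ± 0.19, 0.0221) and the chaperone gene Hspa9 (0.36 ± 0.11, 0.0266). Of 13 targets and regulators of Nrf2 and Bach1, factors that also act on Hmox1 and ferritin genes, 4 were higher and 0 lower (median 0.30), among them Keap1 (0.51 ± 0.13, 0.0110), Gclm (1.56 ± 0.44, 0.0158) and G6pdx (0.30 ± 0.09, 0.0220). The Keap1 groups overlapped, at 31.87, 29.15 and 42.83 TPM in E+F+ and 25.39, 21.97 and 31.7 TPM in E+F- libraries. Under IWR-1 the 7 lists also held lower genes: the transferrin list had 2 higher and 1 lower (Mcoln1, -0.50 ± 0.14, 0.0164) and the sensing list 1 higher and 1 lower (Neo1, -0.61 ± 0.21, 0.0472).

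**Figure D5:**
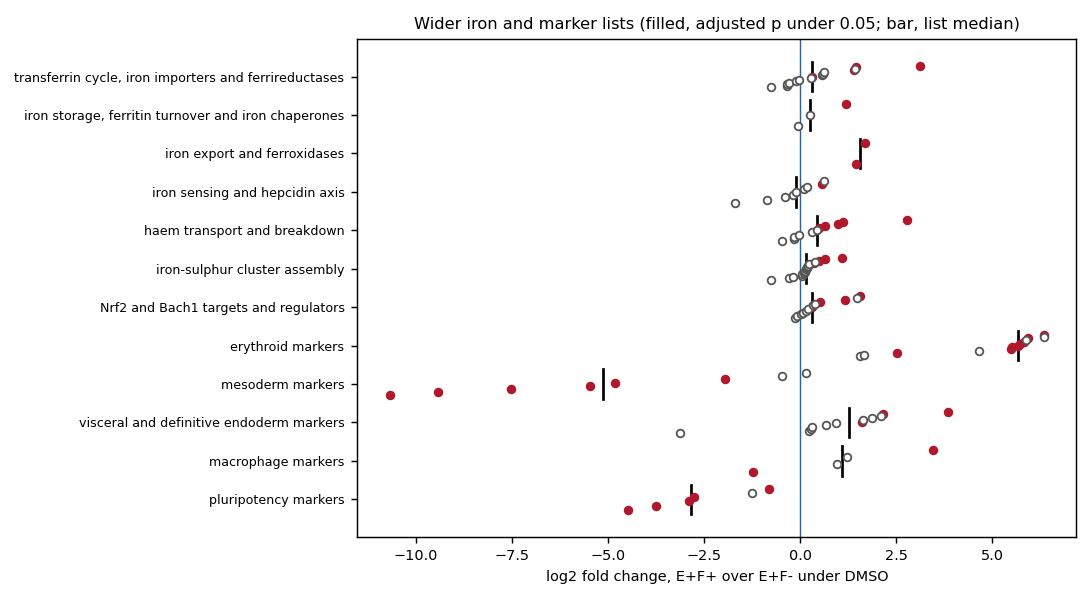
Log2 fold change of E+F+ over E+F- cells under DMSO (horizontal axis) for each tested gene of 7 iron lists and 5 marker lists, filled where the adjusted p was under 0.05, with a bar at each list's median and a vertical line at the median of all genes (-0.01). In the 7 iron lists each gene that passed under DMSO was higher in E+F+ cells, and most genes did not pass.

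Marker lists of the cells that the fractions could hold moved with these differences. Of 13 erythroid markers 8 were higher in E+F+ than in E+F- cells and 0 lower under DMSO (median 5.68), led by Gfi1b (5.52 ± 0.94, adjusted p = 0.000733), Gata1 (5.74 ± 0.99, 0.000799) and Alas2 (5.82 ± 1.14, 0.00183), the last of which encodes the first enzyme of erythroid haem synthesis. These counts are read against 12.8% of all genes higher and 26.6% called in either direction. Of 8 mesoderm markers 6 were lower, and their summed level was 30.7 to 45.2 TPM in E+F+ against 658 to 1066 TPM in E+F- libraries. The mesoderm list includes T (Brachyury), Kdr and Eng, whose reporter or products were used in the sort. Of 12 endoderm markers 3 were higher, with sums of 65.2 to 74.8 against 23.4 to 45.9 TPM. Of 6 pluripotency markers 5 were lower, with sums of 15.3 to 28.4 against 87.0 to 383 TPM. Of the 4 tested macrophage markers Spi1 was higher and Cd68 lower, with sums of 4.81 to 8.21 against 6.24 to 13.3 TPM. The part of each of these lists in the differences of the iron genes was not tested.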

How the data were processed

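RNA was read as single 51-base reads from unstranded libraries. By the study's methods and the labels, the authors aligned reads with Bowtie 0.12.9 to curated RefSeq transcripts of build mm10 after CASAVA 1.8.2, and quantified genes with RSEM 1.2.3. They deposited RSEM expected counts (20321 rows, not normalised, of which 13 are mitochondrial rows with Ensembl IDs) and TPM values (20308 rows, scaled by transcript length and library to the same total). Reads shared by similar genes were divided by RSEM's estimate, so that counts need not be whole.

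The deposited expected counts, rounded to integers, entered edgeR 4.0.16 (quasi-likelihood, TMM scaling, filterByExpr, 1 coefficient for each of 6 groups over 18 libraries, Benjamini-Hochberg adjustment over 13826 genes, threshold 0.05) in R 4.3.3. The standard error is the log2 fold change divided by the root of the F statistic. The test was tested on simulated data before use. By the study's account the libraries within a group were independent biological samples. What a Set shares is not given in the sources used here, and p-values measure only the spread between these libraries. Same-numbered libraries deviated together (r over 0.1 in 42 of 45 pairs of libraries, lowest -0.04), and in each comparison of IWR-1 with DMSO, of E+F+ with unsorted cells, and of E+F+ with E+F- or E+F- with unsorted cells under IWR-1, every pair was over 0.1. Libraries of different Sets ranged from r of -0.64 to 0.40. The highest was between the E+F- DMSO library of Set 1 and the E+F- IWR-1 library of Set 2. It was above the 0.35 of that DMSO library with the IWR-1 library of its own Set. The main fit was unpaired in every comparison. Set as a block, an effect shared by all 6 groups, was an alternative that took these comparisons as paired. For E+F+ against E+F- and E+F- against unsorted cells under DMSO the numbers were not taken to pair the libraries. In both, only Set 1 fell under 0.1. In Sets 1, 2 and 3, r was 0.098, 0.24 and 0.22 for E+F+ with E+F- cells. It was -0.008, 0.29 and 0.44 for E+F- with unsorted cells. No 2 libraries of a group differed by as little as sampling noise. Alternatives were DESeq2 1.42.0, RLE scaling, no filter, limma 3.58.1 on log2(TPM + 1) or log2(TPM + 0.1) with and without a filter of 1 TPM in 3 libraries, Set as a block, the compared groups alone, and each library or Set left out. A fold change on the log2(TPM + pseudocount) scale understates that of low genes.

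The 10 genes, the lists and the tests were chosen with earlier results of these data known. All 10 genes were followed in every comparison, some of them by their range only. Of the wider lists, up to 3 called genes with the smallest adjusted p in E+F+ against E+F- under DMSO are named, other markers only where a count or level needed them, which were chosen after their values were seen. Genes of like pattern are the 3 with the smallest root mean square difference of centred log2 CPM (prior count 2) over 18 libraries, for members whose group means differed by more than 1. Hairpins were read from GENCODE M21 transcripts.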

Additional observations from a re-analysis of the deposited data

How the results depend on the processing

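The number of the 10 genes past the threshold depended on the fit in the comparisons of populations. In E+F+ against E+F- under DMSO it was 4, 2 (Tfrc and Ftl1 being lost) with each of the 3 limma fits on TPM, and 1 to 5 with a library or Set left out. The median log2 fold change of all genes was -0.01, -0.10 with both filtered limma fits and -0.05 with the unfiltered one. Under IWR-1 it was 4, with 2 to 4 when a library or Set was left out. In E+F+ against unsorted under DMSO it was 0, 1 with DESeq2, 2 with the replicate block, and 0 to 1 with a library or Set left out. Under IWR-1 it was 2, 1 with the filtered limma fits at either pseudocount, 0 with unfiltered limma and with the compared groups alone, and 0 to 2 with a library or Set left out. In E+F- against unsorted under DMSO it was 1, 4 with DESeq2, 2 with RLE scaling or the compared groups alone, 5 with the replicate block, and 0 to 2 with a library or Set left out. Under IWR-1 it was 1, 3 with DESeq2, 2 with the limma fits or the replicate block, 0 with the compared groups alone, and 0 to 2 with a library or Set left out. The cause of these changes was not tested. Over all genes, calls in E+F+ against unsorted rose from 1459 to 2806 (DMSO) and from 1389 to 2699 (IWR-1) with the block, in E+F- against unsorted from 1311 to 2829 and from 368 to 1717, the last being 1032 with DESeq2 and 0 with the compared groups alone. Under DMSO, DESeq2 called 2076 genes in E+F+ against unsorted and 1958 in E+F- against unsorted. Limma on TPM gave 753 to 1187 and 904 to 1061 calls in the E+F+ comparisons. In the 3 comparisons of IWR-1 with DMSO and the 3 differences of effects it was 0 under every alternative.

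Leaving out a library or Set was followed for the differences of the 10 genes named above between groups, not for the low genes Tfr2, Steap3 and Slc40a1 between populations. Of these, 3 that passed no test changed direction: Hmox1 in E+F+ against E+F- under IWR-1 ranged from -0.16 to 0.35, Tfrc in E+F- against unsorted under IWR-1 from -0.35 to 0.014 (0.011 without the E+F- library of Set 2), and Slc40a1 in IWR-1 against DMSO in E+F- from -0.25 to 1.74. The replicate block changed no other call of the 10 genes than those given above and the calls it added in E+F- against unsorted under DMSO. In that comparison the numbers were not taken to pair the libraries, because of Set 1 alone. Tfr2 and Steap3, at 1 to 81 counts a library, are limited by depth.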
